A study of Mus musculus with 22 samples.

Results

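The change in gene expression from common myeloid progenitors (CMP) to megakaryocyte-erythroid progenitors (MEP) was described in wild-type mice, without the knockout that the study was built around. The comparison used 6 of the 22 libraries of the series, namely the CMP and MEP libraries that the labels number 300, 305 and 309 and mark as wild type, and it was paired by mouse because each of these 3 mice gave both populations. The study asked what loss of Arid1a, a subunit of the SWI/SNF chromatin remodelling complex, does to blood formation, and these mice were its controls. They were sex-matched littermates that carried the floxed Arid1a allele (f/f) and no Mx1-Cre (Mx1-Cre-), on a strain labelled C57BL/6 after 5 generations of backcrossing. They had received poly(I:C), a synthetic double-stranded RNA that induces interferon and switches on Mx1-Cre in the knockouts, as 5 doses of 300 µg at 8 to 14 weeks of age, and were analysed 4 weeks later. Wild type here therefore means unexcised floxed mice that had been given poly(I:C), and an untreated group was not analysed here.

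CMP are bone marrow cells without lineage antigens that express Kit, lack Sca1, carry CD34 and have low Fcγ receptors. MEP share the first gates but lack CD34 and Fcγ receptors. CMP as sorted by these gates are a mixture that gives granulocytes, monocytes, platelets and red cells in culture, and MEP give red cells and megakaryocytes. The erythroid course is driven by GATA1, which replaces GATA2 on shared target sites and works with TAL1, LMO2, LDB1 and KLF1, while PU.1 (Spi1) and C/EBPα (Cebpa) drive the myeloid courses that granulocyte-macrophage progenitors (GMP) follow.

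The 6 libraries held between 41497753 and 58078841 estimated counts on genes, so depth did not limit genes of moderate level. At least 10 counts were present for 16544 to 17371 genes in the CMP libraries and for 14872 to 15875 genes in the MEP libraries. Levels are given as FPKM, here the gene's count relative to the TMM-scaled library size (TMM, trimmed mean of M values) and per kilobase of effective length, so that levels of different genes can be compared. In all lists of 3 values the mice are in the order 300, 305, 309. The label check used the genes of the sorting gate. Cd34 stood at 305, 289 and 305 FPKM in CMP and 8.89, 0.646 and 3.0 FPKM in MEP, Fcgr2b at 18.97 and 0.340 FPKM on average and Fcgr3 at 8.17 and 0.561 FPKM, while Kit stood at 123 ± 20.1 FPKM in CMP and 123 ± 27.2 FPKM in MEP (SD, n = 3). The libraries thus followed their gates, which are no result. The MEP library of mouse 300 held 2.91% of the Cd34 level of the same mouse's CMP library, against 0.224% in mouse 305 and 0.983% in mouse 309, and the median share kept was also the highest in that mouse for the genes that fell in the megakaryocyte, stem cell, neutrophil and monocyte lists. Without mouse 300, 3112 genes were called higher and 3373 lower.

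Of 16639 genes tested with edgeR's quasi-likelihood test and the mouse as a block, 3233 were called higher in MEP and 3406 lower. A call required an adjusted p (FDR) under 0.1, an absolute log2 fold change over 0.5 and a mean over 1 FPKM, so that 19.4% of all genes tested were called higher and 20.5% lower, and 73.7% passed the FDR alone. These shares are the background for every list below. Where the text says that the groups of a gene did or did not overlap, this describes that gene. The share of all genes tested without overlap is not reported here, so a lack of overlap is not taken to set a gene apart. The median log2 fold change was -0.04 over all genes tested, and the median standard error (SE) of genes above 1 FPKM was 0.08. Falls were steeper than rises, since 478 genes were called lower by more than 4 on the log2 scale (16-fold) and 42 were called higher by as much. The split of the calls depended on the scaling. With library totals only in place of TMM factors, the median of the genes above 1 FPKM moved by -0.18 and 2285 genes were called higher and 4085 lower, so that 35.9% of the calls were rises in place of 48.7%. In bulk libraries, fewer cells of a type and less RNA per cell cannot be told apart, and this holds for every value below.

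**Figure D1:**
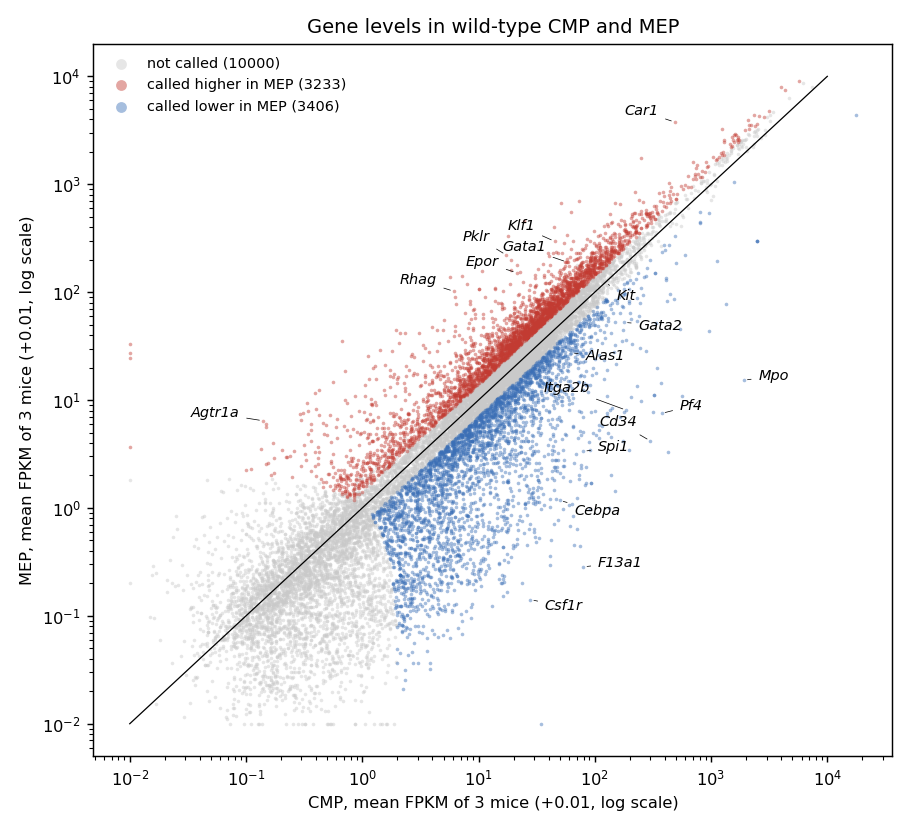
Mean FPKM of each of the 16639 genes tested in CMP (x axis) and MEP (y axis) of 3 mice, both on log scales after adding 0.01, with 3233 genes called higher in MEP in red, 3406 called lower in blue and genes not called in grey. More of the genes called lower than of those called higher lie far from the diagonal, and Kit lies on it.

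The best known red cell factors rose, but their list moved in both directions. Of the 25 erythroid transcription factors and cofactors listed, all tested, 11 rose, 5 fell and 9 were not called, with a median log2 fold change of 0.26. Klf1 (chr8:84901928-84905291 in GRCm38), the activator of globin, membrane and heme genes, stood at 42.9, 52.0 and 40.2 FPKM in CMP and 306, 319 and 263 FPKM in MEP. Every MEP library thus lay more than 5 times above every CMP library, and the log2 fold change was 2.72 ± 0.06 (SE, FDR = 1.1e-06). Gata1 (chrX:7959260-7978071), the central erythroid and megakaryocytic factor, rose from 58.9, 63.4 and 51.3 to 192, 195 and 182 FPKM, a log2 fold change of 1.72 ± 0.06 (SE, FDR = 2.8e-06), again without overlap. Gfi1b, the repressor that takes over from its paralog Gfi1 in this lineage, had 50.3, 62.2 and 44.6 FPKM in CMP and 228, 242 and 218 FPKM in MEP (log2 fold change 2.14 ± 0.07, FDR = 3.0e-06).

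The partners of GATA1 moved less. Ldb1, which bridges distant enhancers, rose by 1.09 ± 0.05 on the log2 scale, Tcf3, the E protein that pairs with TAL1, by 0.97 ± 0.06 and Tal1 by 0.84 ± 0.05. Zfpm1, the GATA1 cofactor FOG1, rose by 0.52 ± 0.05, which is just past the threshold, and with library totals only the value was 0.34 and not called. Lmo2, the adaptor of the complex, was already among the most abundant factors at 443 FPKM in CMP and stood at 414 FPKM in MEP, and Myb, needed for progenitor expansion, at 251 and 213 FPKM. Their log2 fold changes of -0.10 and -0.25 were under the limit on size. Nfia and Klf3 rose by 2.12 and 1.79 on the log2 scale.

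Some factors of the same list fell. Nfe2, which serves platelets as well as globin genes, had 188, 176 and 174 FPKM in CMP and 112, 89.6 and 95.7 FPKM in MEP, so that all 3 MEP libraries were below all 3 CMP libraries (log2 fold change -0.86 ± 0.06, FDR = 2.6e-05). Bach1, the heme-sensitive repressor, fell by 0.78 and Lyl1, the paralog of Tal1, fell by 0.54 on the log2 scale, though Lyl1 was not called without mouse 309. Hes6 fell by 0.97. Sox6 had 5.04, 1.95 and 4.25 FPKM in CMP and 2.49, 2.24 and 1.98 FPKM in MEP, with overlap between the groups, and lost its call in 4 of the 11 other fits.

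The factors of stem and myeloid cells fell almost throughout. Of 39 listed, 37 were tested, 31 fell, 2 rose and 4 were not called, and the median log2 fold change was -2.78 (medians per mouse -2.39, -3.16 and -2.62). Batf3 and Egr2 did not pass the filter for low counts. Gata2 (chr6:88193891-88207032), the GATA factor of stem and early progenitor cells, stood at 197, 175 and 162 FPKM in CMP and 60.8, 49.4 and 47.2 FPKM in MEP (log2 fold change -1.77 ± 0.05, FDR = 1.9e-06). The ratio of Gata1 to Gata2, per length, was 0.325 ± 0.0325 in CMP and 3.65 ± 0.426 in MEP (SD, n = 3), so that the order of the GATA factors was inverted in each mouse. In GMP, the other sorted precursor, Gata2 stood at 69.6 ± 8.08 FPKM, still above the 52.4 ± 7.09 FPKM of MEP on the scale of 9 libraries (log2 difference MEP less GMP -0.42 ± 0.10, FDR = 0.0045, where 72.6% of 17476 genes passed that FDR).

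Among myeloid factors, Spi1, encoding PU.1, had 70.4, 78.6 and 90.2 FPKM in CMP and 4.77, 2.52 and 2.73 FPKM in MEP. Cebpa had 48.8, 50.5 and 50.6 FPKM in CMP and 1.49, 1.08 and 0.918 FPKM in MEP, and Irf8, the factor of monocytes and dendritic cells, 76.3, 145 and 179.8 FPKM and 1.09, 0.584 and 1.28 FPKM. The highest MEP library was below the lowest CMP library by more than 10 times for each of the 3 genes, and their log2 fold changes were -4.58 ± 0.24, -5.42 ± 0.15 and -6.99 ± 0.29 (FDR = 1.0e-05, 1.7e-06 and 5.1e-06). In CMP, Irf8 differed between mice by more than 2-fold, and mouse 300 had the lowest value. Gfi1, the granulocytic repressor, fell by 5.12 on the log2 scale. The ratio of Gata1 to Spi1 was 0.737 ± 0.147 in CMP and 61.4 ± 18.97 in MEP (SD, n = 3).

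Factors of the stem cell state fell as well. Hlf, a marker of stem cells, had a log2 fold change of -4.24 ± 0.28, Meis1, the HOX cofactor, of -4.10 ± 0.23, Erg and Fli1, ETS factors of stem cells and megakaryocytes, of -4.50 ± 0.38 and -4.20 ± 0.18, and Hoxa9 of -1.26 ± 0.11. Runx1, which both megakaryocytes and stem cells need, fell from 42.1 ± 4.19 to 11.4 ± 1.34 FPKM (SD, n = 3). Its distal start gave 84.9 ± 2.48% of its estimated counts in CMP and 82.9 ± 3.97% in MEP, and the proximal start 13.97 ± 1.89% and 10.3 ± 0.929% (SD, n = 3). Another start, that of Runx1-203, gave 0.759, 0.916 and 1.81% in CMP and 8.45, 9.02 and 2.82% in MEP, higher in 3 of 3 mice, with no test. The genes that rose in this list were Ikzf1 (log2 fold change 0.58 ± 0.05), encoding Ikaros, and Egr1 (0.51 ± 0.16), of which Egr1 sat at 3.37 FPKM in MEP and lost its call in 6 of the 11 other fits and Ikzf1 lost it with library totals only, where its value was 0.40. Myc stood at 211 ± 25 FPKM in CMP and 262 ± 25.7 FPKM in MEP and was not called.

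**Figure D2:**
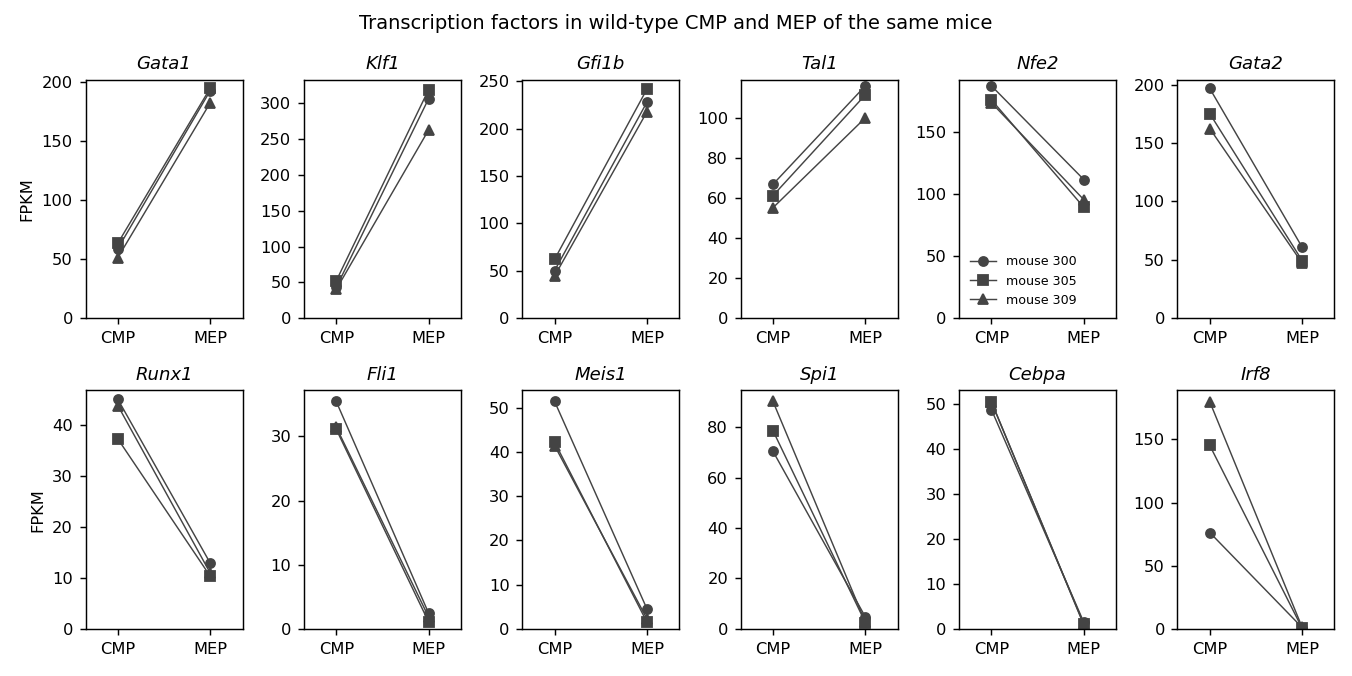
FPKM of 12 transcription factors (y axes from 0, linear) in CMP and MEP, with 1 line for each of the mice 300, 305 and 309. Gata1, Klf1, Gfi1b and Tal1 rise in every mouse, Nfe2, Gata2 and Runx1 fall in part, and Fli1, Meis1, Spi1, Cebpa and Irf8 end near 0.

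Most heme synthesis genes rose, and the housekeeping enzyme of the first step fell. All 9 enzymes listed were tested, 7 rose, 1 fell and 1 was not called, with a median log2 fold change of 1.80 (medians per mouse 1.70, 1.94 and 2.02). Alad (chr4:62509169-62519918), the second enzyme, rose from 63.0, 67.1 and 58.2 to 247, 267 and 238 FPKM (log2 fold change 1.998 ± 0.05, FDR = 1.2e-06). Down the pathway, the log2 fold changes were 1.80 for Uros, 1.64 for Urod, 2.74 for Cpox, 1.72 for Ppox and 2.10 for Fech, which inserts the iron. For these 6 enzymes every MEP library was above every CMP library.

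The entry enzyme exists as a housekeeping form, Alas1, and an erythroid form, Alas2. Alas1 had 53.3, 65.4 and 68.4 FPKM in CMP and 28.7, 25.8 and 27.6 FPKM in MEP, a fall without overlap (log2 fold change -1.18 ± 0.10, FDR = 6.2e-05), and stood at 575 ± 50.2 FPKM in GMP, so that MEP had the lowest level of the 3 precursors. Alas2 had 0.540, 0.602 and 0.275 FPKM in CMP and 0.863, 1.91 and 1.34 FPKM in MEP. Its log2 fold change was 1.501 ± 0.36 (FDR = 0.0089), but its mean stayed under 1 FPKM, and it was not called. Per length, Alas1 was thus still 22.4 ± 9.98 times as abundant as Alas2 in MEP (SD, n = 3), against 152 ± 83.9 times in CMP.

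Some of these genes have more than 1 annotated start, and the share of a gene's estimated counts was taken for the transcripts at each. The farthest upstream transcript of Alas1, Alas1-207, gave 9.13, 6.84 and 7.76% of the counts of the gene in CMP and 23.8, 21.4 and 24.5% in MEP. The groups did not overlap and the share rose in 3 of 3 mice, with no test of shares. In CPM, the counts scaled to library size, Alas1-207 was at 6.90 ± 0.586 in CMP and 8.99 ± 1.02 in MEP, 1.303-fold higher (SD, n = 3), while the group of starts next to it was at 33.3 ± 4.86 and 11.4 ± 1.15 and the largest other transcript, Alas1-206, at 41.99 ± 6.24 and 15.7 ± 0.680. Alas1-207 was higher in MEP in 3 of 3 mice, and the others named were lower, with no test of single transcripts. The upstream start of Tal1 gave 54.4 ± 3.12% of its counts in CMP and 53.5 ± 4.24% in MEP (SD, n = 3), and Epor has a single annotated start in these files. The main group of Uros starts gave 98.9 ± 0.452% of its counts in CMP and 95.9 ± 0.923% in MEP (SD, n = 3). Fragments shared by transcripts of a gene were split between them by the authors' quantification, so these shares are estimates.

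**Figure D3:**
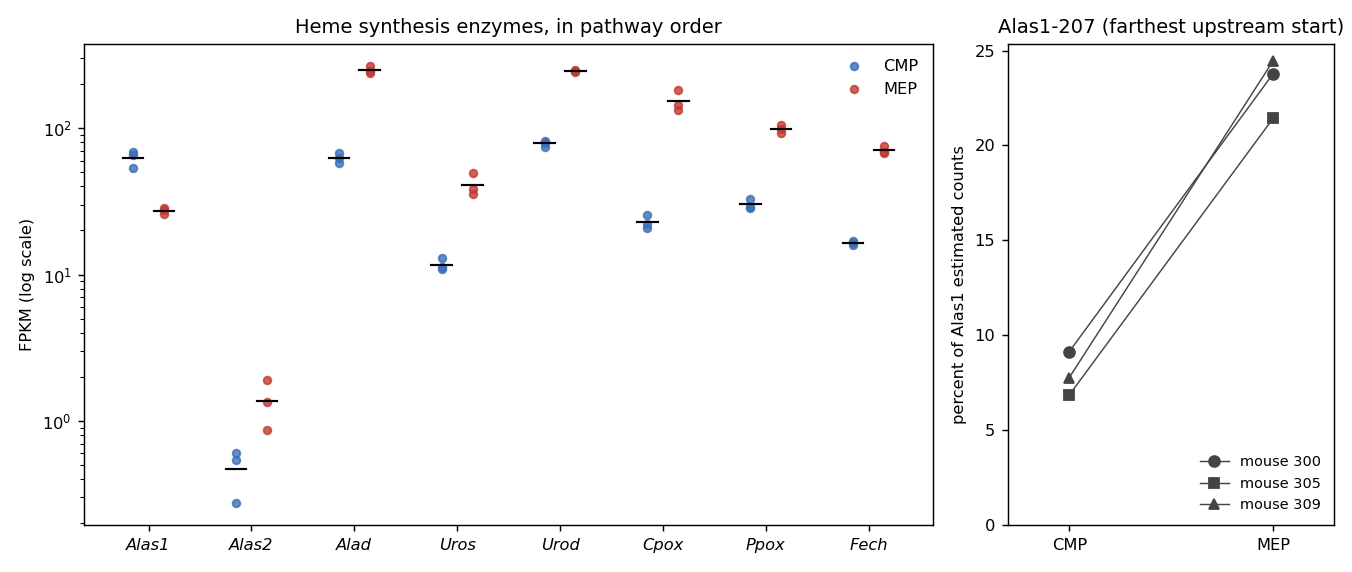
Left, FPKM (log scale) of 8 heme synthesis enzymes in pathway order in the CMP (blue) and MEP (red) libraries of 3 mice, with a bar at each mean. Right, percent of the estimated counts of Alas1 on Alas1-207, the transcript with the farthest upstream start, for each mouse (y axis from 0). Alas1 is the enzyme whose MEP points lie below its CMP points, and the Alas1-207 share lies at 6.84 to 9.13% in CMP and 21.4 to 24.5% in MEP.

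Iron and porphyrin handling rose with heme synthesis. Of 30 genes, all tested, 22 rose, 2 fell and 6 were not called (median log2 fold change 1.11). Tfrc, the receptor that takes up transferrin iron, had 34.8, 44.9 and 38.5 FPKM in CMP and 129, 195 and 146 FPKM in MEP (log2 fold change 1.98 ± 0.06, FDR = 2.1e-06). Mouse 305 was the highest in both populations and the groups did not overlap. The largest rises were those of Blvrb, a biliverdin reductase (3.16 ± 0.06), Slc40a1, the iron exporter ferroportin (2.66 ± 0.05), Tspo2 (2.34 ± 0.06) and Slc25a38, the mitochondrial glycine carrier that feeds heme synthesis (2.11 ± 0.06). Slc11a2, which moves iron out of endosomes, and Steap3, the ferrireductase beside it, rose by 2.01 and 1.86. Slc25a37, mitoferrin 1, which brings iron into mitochondria, stood at 23.1 ± 0.709 FPKM in CMP and 20.7 ± 3.18 FPKM in MEP and was not called. Hmox1, which breaks heme down, fell by 3.69 and Ncoa4, the receptor that sends ferritin to lysosomes, fell by 1.71 on the log2 scale.

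Adult globin genes rose in part. Of 10 globin and chaperone genes listed, 4 adult globins were tested, 3 rose and 1 was not called. The embryonic and theta globins had at most 10 counts in any library and did not pass the filter, and Ahsp was not matched to the annotation. Hba-a1 had 15.2, 21.4 and 7.39 FPKM in CMP and 44.9, 152 and 41.9 FPKM in MEP (2.30 ± 0.24, FDR = 1.8e-04), without overlap. Hbb-bs had 18.5, 22.0 and 9.01 FPKM in CMP and 16.4, 44.4 and 13.5 FPKM in MEP, where the groups overlapped, and its log2 fold change of 0.48 ± 0.22 (FDR = 0.095) was not called. Mouse 305 was the highest in both populations for all 4 genes. Hba-a1 and Hba-a2 are near-identical copies, as are Hbb-bs and Hbb-bt, so the split of fragments within each pair is uncertain. Summed over 10 markers of late erythroblasts, the level was 53.5 to 112 FPKM in CMP and 170.4 to 446 FPKM in MEP. Most of this sum was globin, since the 4 adult globins alone summed to 33.7 to 87.2 and 102 to 353 FPKM. Of the 10 markers, 6 were called higher and 4 were not called.

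The membrane and cytoplasm of the red cell had the highest median of any list. All 40 genes were tested, 33 rose, 2 fell and 5 were not called, the median log2 fold change was 2.59 (medians per mouse 2.57, 2.44 and 2.62), and each of the 11 other fits also gave 33 rises. Car1 and Car2, carbonic anhydrases, were among the most abundant transcripts of MEP, with 482, 493 and 487 FPKM in CMP and 4196, 2908 and 4201 FPKM in MEP for Car1 (log2 fold change 2.93 ± 0.12) and 248 ± 17.1 and 1733 ± 148 FPKM for Car2 (SD, n = 3, log2 fold change 2.80 ± 0.06). The largest rises were those of Trim10 (4.4 ± 0.13), Cldn13, a claudin (4.29 ± 0.06), Rhag, a Rh complex subunit (4.06 ± 0.08), and Dmtn, which bundles actin under the membrane (3.93 ± 0.12).

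Levels within the list differed widely, as Rhd had 156 FPKM and Add2, the erythroid adducin, 119 FPKM in MEP, whereas Epb42 had 10.1 FPKM and Dmtn 5.27 FPKM. Slc4a1, the anion exchanger band 3, had 0.535, 0.602 and 0.168 FPKM in CMP and 0.446, 0.984 and 0.317 FPKM in MEP, so that the groups overlapped below 1 FPKM and it was not called. Apoe, the apolipoprotein, fell by 1.41 and Cd47, the signal that restrains phagocytes, fell by 0.64, although the value for Cd47 was -0.02 with a transcript length offset and 0.0003 with DESeq2 and that offset.

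To show the sequence around genes of this program, the 250 bases before the RefSeq start are given for Klf1, Epor, Pklr, Rhag, Elane and Prtn3. The first 4 rose by more than 2.5 on the log2 scale, and Elane and Prtn3 fell by more than 4. Each printed window holds the letters marked below, so these genes are examples and do not show how common the letters are. Over the windows compared further below, AGATAA or TGATAA was present for 13.4% of the genes called higher and 26.0% of the 200 largest rises. GAGGAAGT was present for 5.28% of the genes called lower and 9.5% of the 200 largest falls. The sequences are from RefSeq on GRCm38.p6, run 5′ to 3′ on the strand of the gene, and lie at chr8:84901732-84901981 (plus strand, Klf1), chr9:21963577-21963826 (minus, Epor), chr3:89135892-89136141 (plus, the first of 2 windows for Pklr), chr17:40810899-40811148 (plus, Rhag), chr10:79886062-79886311 (plus, Elane) and chr10:79879417-79879666 (plus, Prtn3). In the first 4, capitals mark the letters AGATAA or TGATAA, a core that GATA factors bind, and CACCC, a core that KLF1 binds, on either strand, a match on the opposite strand being shown as its reverse complement. The second Pklr window, at chr3:89136373-89136622, holds none of these letters. The RefSeq start matches the GENCODE gene start, from which the gene coordinates are given, for Pklr, lies inside the GENCODE gene for Klf1, Rhag, Elane and Prtn3 and upstream of it for Epor.
Klf1: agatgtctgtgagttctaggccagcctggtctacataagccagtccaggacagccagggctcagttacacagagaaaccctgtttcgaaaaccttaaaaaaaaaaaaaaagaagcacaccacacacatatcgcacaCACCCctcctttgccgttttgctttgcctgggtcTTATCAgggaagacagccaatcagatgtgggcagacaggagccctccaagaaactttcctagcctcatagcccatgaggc
Epor: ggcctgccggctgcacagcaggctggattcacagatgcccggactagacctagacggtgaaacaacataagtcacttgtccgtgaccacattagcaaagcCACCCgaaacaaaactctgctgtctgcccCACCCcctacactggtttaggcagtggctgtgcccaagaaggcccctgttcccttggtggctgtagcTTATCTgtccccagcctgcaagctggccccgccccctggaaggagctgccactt
Pklr: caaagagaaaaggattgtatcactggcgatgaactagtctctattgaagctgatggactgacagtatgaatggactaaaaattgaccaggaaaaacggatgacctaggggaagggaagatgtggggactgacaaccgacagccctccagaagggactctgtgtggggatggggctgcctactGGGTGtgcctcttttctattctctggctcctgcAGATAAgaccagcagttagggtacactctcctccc
Rhag: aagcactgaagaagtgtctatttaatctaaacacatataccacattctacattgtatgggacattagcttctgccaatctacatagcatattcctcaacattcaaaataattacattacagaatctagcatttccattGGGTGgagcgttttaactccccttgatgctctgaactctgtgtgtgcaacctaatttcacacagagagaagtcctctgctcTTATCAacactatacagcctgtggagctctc
In the other pair, capitals mark GAGGAAGT, a core that PU.1 binds.
Elane: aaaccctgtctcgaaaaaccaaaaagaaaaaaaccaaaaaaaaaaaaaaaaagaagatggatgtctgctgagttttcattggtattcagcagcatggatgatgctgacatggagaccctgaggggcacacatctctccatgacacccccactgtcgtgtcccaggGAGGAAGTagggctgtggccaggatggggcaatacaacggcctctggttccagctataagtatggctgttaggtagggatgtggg
Prtn3: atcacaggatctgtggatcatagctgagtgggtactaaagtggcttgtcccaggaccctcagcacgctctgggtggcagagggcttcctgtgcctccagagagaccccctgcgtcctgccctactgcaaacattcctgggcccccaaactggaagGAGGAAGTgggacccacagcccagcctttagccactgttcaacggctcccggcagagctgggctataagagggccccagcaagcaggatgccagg
The GATA letters began 80 bases before the RefSeq start in Klf1, 54 in Epor, 35 in Pklr and 31 in Rhag, and GAGGAAGT began 85 bases before it in Elane and 95 in Prtn3.

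Over windows of 300 bases (250 before and 50 after the start), AGATAA or TGATAA was present on either strand for 13.2% of the 11189 genes tested that had a window, for 13.4% of the genes called higher and for 14.5% of those called lower. Among the 200 largest rises it was present for 26.0%, and among the 200 largest falls for 17.0%. It was also present for 29.6% of 27 red cell membrane and cytoplasm genes and 42.9% of 7 heme synthesis genes with a window. Of 24 iron and porphyrin genes it was present for 8.33%. Among lists that fell, the share was 30.8% of 26 megakaryocyte, 31.6% of 19 monocyte and dendritic cell and 15.4% of 26 neutrophil genes. Lists that rose and lists that fell thus overlapped in this share. CACCC was present for 66.8% of all genes tested with a window, for 62.7% of the genes called higher and 71.7% of those called lower, and for 75.5% of the 200 largest rises and 67.5% of the 200 largest falls. GAGGAAGT was present for 3.94% of all genes tested with a window, 3.31% of the genes called higher, 5.28% of those called lower, 9.50% of the 200 largest falls and 3.50% of the 200 largest rises. Of all 32851 windows in the table, 18.6% held AGATAA or TGATAA, 57.5% CACCC and 3.20% GAGGAAGT. TTGCGCAA, a core that C/EBP factors bind, was present for 0.313% of the genes tested and is too rare to compare. These shares are a description of letters near starts, with no test, and a match is not evidence that a factor was bound.

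Megakaryocyte and platelet genes fell, although MEP carry the megakaryocyte in their name. Of 35 genes 33 were tested, none rose, 23 fell and 10 were not called (32 of the 33 passed the FDR of edgeR alone and all 33 had a negative fold change), and the median log2 fold change was -4.47 (medians per mouse -3.81, -4.70 and -4.24). P2ry12 and Myl9 did not pass the filter. Pf4, a platelet chemokine, had 443, 324 and 359.9 FPKM in CMP and 13.5, 5.22 and 3.79 FPKM in MEP (log2 fold change -5.71 ± 0.26, FDR = 7.1e-06). Itga2b, the integrin CD41, had 233, 144 and 182 FPKM in CMP and 12.99, 4.92 and 6.24 FPKM in MEP (-4.61 ± 0.16, FDR = 3.0e-06). The CMP libraries were above the MEP libraries by more than 10 times for both genes, and mouse 300 was the highest in each population.

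The other defining genes followed the same order. Vwf, von Willebrand factor, fell by 2.65, Itgb3, the partner of CD41, by 5.64 and Selp, P-selectin, by 5.44, and Plek, a platelet kinase substrate, fell by 5.91 on the log2 scale. Exceptions included Gp5, at 25.4 ± 3.36 FPKM in CMP and 24.2 ± 2.70 FPKM in MEP (SD, n = 3), and P2ry1, a purine receptor, at 13.1 and 11.4 FPKM, which were not called. On the scale of 9 libraries, Pdzk1ip1 stood at 27.9 FPKM in CMP and 20.2 FPKM in MEP and Gp1ba at 7.46 and 5.07 FPKM. Among members called lower, the MEP library kept a median of 5.57% of the level of the same mouse's CMP library in mouse 300, 3.42% in mouse 305 and 3.18% in mouse 309. In GMP, Itga2b stood at 64.9 ± 19.2 FPKM and Pf4 at 58.5 ± 26.4 FPKM, both above MEP (log2 difference MEP less GMP -3.07 ± 0.21 and -2.94 ± 0.37, FDR = 2.2e-06 and 1.0e-04). By these markers the cells labelled MEP carried red cell transcripts and little of the megakaryocyte set, and their gate excludes CD34+ cells, whose part in the result was not tested.

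Genes of neutrophil granules and their precursors fell in the same way. All 29 were tested, 25 fell, none rose and 4 were not called, and all 29 passed the FDR of edgeR alone in the lower direction (median log2 fold change -3.24). Mpo, myeloperoxidase, had 1690.1, 1957 and 2099.7 FPKM in CMP and 21.4, 7.74 and 16.6 FPKM in MEP, a log2 fold change of -7.06 ± 0.35 (FDR = 8.7e-06). Elane, neutrophil elastase, had 115, 128 and 139 FPKM in CMP and 9.18, 4.64 and 7.35 FPKM in MEP (-4.19 ± 0.20, FDR = 8.4e-06). In GMP the same genes stood at 12464 ± 587 and 5259 ± 558 FPKM (SD, n = 3), so that CMP lay between GMP and MEP. Ctsg, cathepsin G, fell by 7.01 and Prtn3, proteinase 3, by 5.69. Late granule genes fell less, Ltf by 1.24 and Camp by 1.24 on the log2 scale. Over 10 markers of mature neutrophils the summed level was 54.3 to 225 FPKM in CMP and 26.6 to 94.8 FPKM in MEP, mouse 300 was the highest in both, and 8 of the 10 fell, a count that was 3 without the mouse as a block.

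Monocyte and dendritic cell genes had the lowest median of all lists, -5.13. Of 24 genes listed 23 were tested, 17 fell, 2 rose and 4 were not called. F13a1, the A subunit of coagulation factor XIII, was the largest fall of any protein-coding gene called, from 47.4, 92.5 and 99.9 FPKM in CMP to 0.274, 0.216 and 0.334 FPKM in MEP (-8.11 ± 0.19, FDR = 1.2e-06). Csf1r, the receptor of macrophage colony stimulating factor, came next with 18.8, 28.6 and 36.4 FPKM and 0.191, 0.0877 and 0.116 FPKM (-7.61 ± 0.27, FDR = 3.3e-06). In both genes the CMP library of mouse 300 was the lowest of the 3, while the MEP libraries were all under 1 FPKM. Ms4a6c and Emb fell by 7.37 and 6.68. Zbtb46, a factor known for classical dendritic cells, went the other way, from 2.37, 2.25 and 2.42 FPKM in CMP to 21.5, 19.9 and 21.2 FPKM in MEP (3.15 ± 0.06, FDR = 9.0e-07), and Ifi30, a lysosomal reductase, rose by 0.56 ± 0.09, a call that was lost with library totals only and without mouse 309. Defining macrophage markers were low in both populations, with a summed level of 3.53 to 5.96 FPKM in CMP and 0.344 to 0.648 FPKM in MEP over the 6 of 10 tested. None of the 6 was called, because none had a mean over 1 FPKM, but all 6 passed the FDR of edgeR alone in the lower direction.

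Among 24 basophil, mast cell and eosinophil genes, 19 were tested, 14 fell, 1 rose and 4 were not called (median -2.12). Cpa3, the mast cell carboxypeptidase, had 110.1, 32.7 and 84.9 FPKM in CMP and 2.68, 1.10 and 3.24 FPKM in MEP (-5.01 ± 0.14, FDR = 1.8e-06). Mouse 305 was the lowest in both populations. Ms4a2, the β chain of the IgE receptor, fell by 5.83 and Hdc, which makes histamine, by 5.67. Il1rl1, the receptor of interleukin 33, rose from 15.1, 13.9 and 15.2 to 30.9, 30.4 and 32.3 FPKM (1.09 ± 0.05, FDR = 8.3e-06).

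Early lymphoid genes fell in part. Of 27 genes 25 were tested, 9 fell, 1 rose (Tcf7, by 1.25 ± 0.40) and 15 were not called, and the median log2 fold change of -0.33 rested on mouse 305, since it was 0.11 without that mouse. Flt3, the receptor of multipotent progenitors, fell by 4.95, Notch1 by 4.66 and Ighm, the µ heavy chain locus, by 4.43. Rag1, the recombinase, had 0.105, 0.102 and 0.178 FPKM in CMP and 0.240, 0.0699 and 1.12 FPKM in MEP and was not called. Over the 10 B and plasma cell markers the summed level was 104 to 167 FPKM in CMP and 7.28 to 14.2 FPKM in MEP, mostly Ighm, Cd79b and Jchain, while Ms4a1 and Pax5 stood at 0.106 and 0.171 FPKM in MEP. The 6 T and NK cell markers tested summed to 10.1 to 11.1 and 2.004 to 3.49 FPKM, with 2 called lower, and the 6 stroma and endothelium markers tested to 44.7 to 52.9 and 3.14 to 5.17 FPKM, nearly all Pecam1 and Emcn, which progenitors also express. The part of other cell types in these differences was not tested.

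Stem cell genes beyond the transcription factors fell too. Of 28 genes listed 27 were tested, 19 fell, 2 rose and 6 were not called (median -3.38). The list includes Cd34 and Ly6a, on which the cells were sorted. Angpt1, a ligand that stem cells make, fell by 3.88, Tek, its receptor, by 4.09, Procr, the endothelial protein C receptor, by 3.91 and Adgrg1, an adhesion receptor, by 2.32 on the log2 scale. Mllt3, a superelongation complex subunit that maintains stem cells and acts in early erythroid cells, rose from 16.6, 15.9 and 13.5 FPKM in CMP to 45.8, 49.6 and 47.3 FPKM in MEP (1.64 ± 0.08, FDR = 8.3e-06). The members that fell kept a median of 12.2% of the CMP level in mouse 300, 4.58% in mouse 305 and 7.42% in mouse 309, so that the MEP library of mouse 300 was again the highest.

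Most cytokine and growth factor receptor genes fell, while Epor rose. Of 38 cytokine and growth factor receptor genes 36 were tested, 3 rose, 28 fell and 5 were not called, with a median log2 fold change of -2.38. Epor (chr9:21958897-21963506), the erythropoietin receptor, had 21.5, 22.99 and 19.3 FPKM in CMP and 152, 155 and 147 FPKM in MEP (2.83 ± 0.06, FDR = 9.0e-07). The other rises were Il1rl1, given above, and Ifngr1, a chain of the interferon-γ receptor, by 0.81 ± 0.09, to 161 FPKM. Some receptors that fell kept a clear level in MEP, as Il17ra stood at 50.9 FPKM, Ifnar2 at 30.9 FPKM and Il10rb at 18.1 FPKM. Kit, the receptor of stem cell factor, had 142, 102 and 126 FPKM in CMP and 138, 91.7 and 139 FPKM in MEP, where mouse 305 was the lowest in both, but both gates select for its protein. Flt3 had 48.7, 50.5 and 61.5 FPKM in CMP and 3.21, 0.286 and 2.32 FPKM in MEP. The MEP library of mouse 305 was the lowest and that of mouse 300 the highest, and all 3 were far below the CMP libraries. Csf2rb, the common β chain of the receptors for interleukin 3, interleukin 5 and GM-CSF, fell by 6.25, Csf3r, the G-CSF receptor, by 5.22, and Il6ra and Il6st, the chains of the interleukin 6 receptor, by 5.47 and 5.42.

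Set beside GMP, with all levels of this paragraph on the scale of 9 libraries, the receptors that fell were of different kinds. Csf3r stood at 81.9 ± 5.39 FPKM in GMP, 35.8 ± 2.35 in CMP and 1.05 ± 0.930 in MEP, and Csf2rb at 36.4 ± 1.351, 15.97 ± 0.375 and 0.207 ± 0.124 FPKM, in that order. Flt3 was highest in CMP, with 5.73 ± 0.973 FPKM in GMP. Il6ra stood at 13.6 ± 2.57 FPKM in GMP and 0.268 ± 0.0904 FPKM in MEP. Between MEP and GMP, Flt3 was lower in MEP (log2 difference -1.66 ± 0.48, FDR = 0.014) and Epor higher (7.07 ± 0.10, FDR = 5.4e-10).

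**Figure D4:**
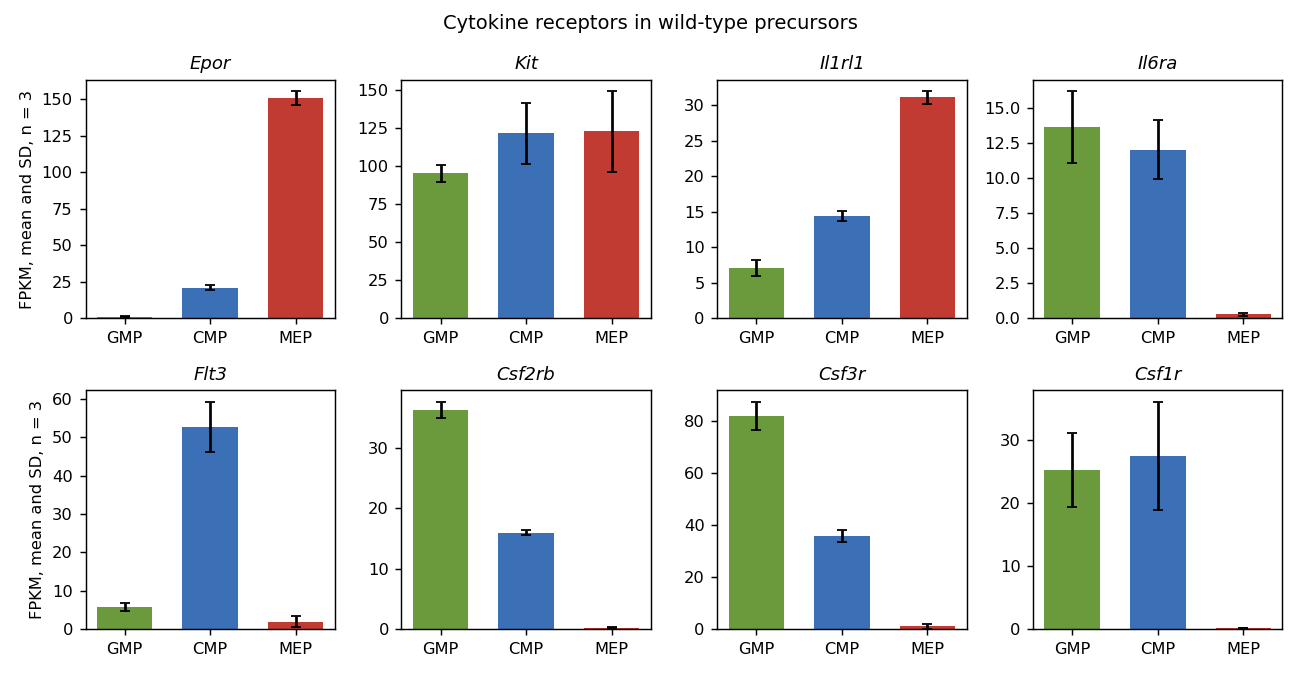
Mean FPKM and SD (n = 3 mice) of 8 receptors in GMP (green), CMP (blue) and MEP (red), on linear axes from 0 and on the scale of the 9 wild-type precursor libraries. Epor and Il1rl1 are highest in MEP, Flt3 in CMP, Csf2rb and Csf3r in GMP, and Kit is close in CMP and MEP.

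Downstream of these receptors, 32 signalling genes were tested, 1 rose, 19 fell and 12 were not called (median -1.12). The kinase and transducers of the erythropoietin receptor were present in both populations, with Jak2 at 26.6 ± 1.79 FPKM in CMP and 26.8 ± 1.296 FPKM in MEP and Stat5a at 59.4 ± 3.62 and 77.7 ± 5.59 FPKM (SD, n = 3), and neither was called. Stat3 fell from 50.3, 45.1 and 44.9 to 11.3, 9.10 and 9.35 FPKM (-2.24 ± 0.06, FDR = 1.4e-06). Among survival genes, Bcl2 fell by 4.41 on the log2 scale, the pro-apoptotic Bcl2l11 (BIM) rose by 0.91 ± 0.07, and Mcl1 stood at 61.8 and 56.2 FPKM and was not called. Pim1, a survival kinase, fell by 2.09, Fes, a tyrosine kinase, by 5.202 and Pik3cg, a phosphoinositide kinase, by 2.57. Socs3, a feedback inhibitor, had a mean under 1 FPKM and was not called (log2 fold change -4.30 ± 0.45).

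Replication genes rose in part and by small steps. All 59 listed were tested, 27 rose, none fell (5 passed the FDR of edgeR alone in the lower direction) and 32 were not called, with a median log2 fold change of 0.46. With library totals only, 15 rose and 1 fell. Ccne1, cyclin E1, which starts S phase with CDK2, stood apart from the rest, with 12.6, 15.7 and 12.9 FPKM in CMP and 102, 133 and 94.6 FPKM in MEP (2.99 ± 0.06, FDR = 9.0e-07). Orc5 and Orc2, origin recognition subunits, rose by 1.79 and 1.348, and Cdc6, which loads the helicase, by 1.46. The helicase itself moved little, as Mcm6 had 241 ± 10.03 FPKM in CMP and 263 ± 10.7 FPKM in MEP (SD, n = 3) and Mcm3 176 and 191 FPKM, and neither was called.

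Of 50 mitosis genes, all tested, 10 rose, 2 fell and 38 were not called (median 0.29), and with library totals only the split was 4 and 6. The share that rose was near the 19.4% of all genes tested. Cenpa, the centromeric histone, rose by 1.33 ± 0.06, Plk1 by 0.96 and Pttg1, securin, by 0.85 on the log2 scale. Cdc25b, a phosphatase that activates CDK1, fell from 28.6, 28.1 and 30.2 to 6.09, 5.64 and 5.78 FPKM (-2.31 ± 0.07, FDR = 2.0e-06), and Kif23, a cytokinesis motor, fell by 0.89. Of 15 genes for cyclins, their kinases and the inhibitors of these, 14 were tested, 6 fell, 2 rose and 6 were not called (median -0.68). Cdkn1a, p21, fell by 2.95, Cdkn2d, p19, by 2.09, Cdkn1b, p27, by 0.94, Ccnd2 by 1.24, Ccnd1 by 1.07 and Cdk6 by 1.18 on the log2 scale. The rises, Cdk4 (0.54) and Rb1 (0.61), were not called with library totals only, and Cdk4 was not called without mouse 300.

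Ribosome biogenesis genes rose almost throughout. Of 30 ribosome biogenesis genes, all tested, 29 rose and 1 was not called, with a median log2 fold change of 0.80, and 22 rose with library totals only. Nop56, a small nucleolar RNP protein, had 259, 297 and 272 FPKM in CMP and 579.8, 582 and 576 FPKM in MEP (1.07 ± 0.05, FDR = 9.6e-06). The largest rises were Utp4 (1.31), Rrp9 (1.27), Gnl3, nucleostemin (1.26), and Nolc1 (1.21). Of 44 cytosolic ribosomal protein genes 17 rose, none fell (0 passed the FDR of edgeR alone in the lower direction) and 27 were not called, a count of rises that was 7 with library totals only and 34 without mouse 305. Ribosomal protein genes have many processed pseudogenes that share fragments with them, so single values are uncertain. Rplp1 rose from 4025 ± 271 to 8004 ± 246 FPKM, whereas Rps14 stood at 2306 ± 98.7 and 2224 ± 125 FPKM (SD, n = 3) and was not called.

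Glycolysis genes moved in both directions, and isozymes of the same step moved apart. Of 22 genes, all tested, 4 rose, 9 fell and 9 were not called (median -0.24). Pklr (chr3:89136142-89146784), the pyruvate kinase of red cells and liver, had 17.7, 17.1 and 16.9 FPKM in CMP and 221, 226 and 216 FPKM in MEP (3.68 ± 0.05, FDR = 5.8e-07). Pkm (chr9:59656368-59679375), the form of most other cells, had 311, 325 and 316 FPKM in CMP and 12.3, 3.70 and 7.38 FPKM in MEP (-5.46 ± 0.33, FDR = 1.8e-05). Neither gene had overlapping groups, and the ratio of Pklr to Pkm went from 0.0544 ± 0.00215 in CMP to 36.1 ± 22.3 in MEP (SD, n = 3), and it was the lowest in mouse 300 and the highest in mouse 305. In GMP, Pklr stood at 0.409 ± 0.0763 FPKM and Pkm at 649 ± 22.7 FPKM (SD, n = 3).

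The hexokinases and phosphofructokinases also moved in both directions. Hk1 rose by 0.75 and Pfkm by 1.62, while Hk3 fell by 6.78, Hk2 by 2.48 and Pfkp by 1.23 on the log2 scale. Pgam1, phosphoglycerate mutase, fell from 210.0 ± 19.3 to 33.0 ± 2.04 FPKM (SD, n = 3), whereas Gapdh stood at 905 ± 38.5 and 886 ± 24.1 FPKM and Eno1 at 239.8 ± 18.4 and 228 ± 10.9 FPKM (SD, n = 3), and neither was called. Slc2a1, the glucose transporter GLUT1, fell by 4.36 to 0.398 FPKM and Slc2a3, GLUT3, stood at 25.2 and 30.8 FPKM and was not called. Slc16a1, a carrier of lactate and pyruvate, rose by 1.10.

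Antioxidant genes rose for the most part. Of 26, all tested, 16 rose, 1 fell (Hmox1, given above) and 9 were not called (median 0.85). Prdx2, the peroxiredoxin that is abundant in red cells, rose from 221 ± 5.27 to 839 ± 55.6 FPKM (SD, n = 3). Gstm5 rose by 2.13, Mgst3 by 1.84, Nqo1 by 1.77, and Nfe2l2, the factor NRF2 that activates many of these genes, by 1.18 on the log2 scale. Of 22 cholesterol synthesis genes, all tested, 7 rose, 3 fell and 12 were not called (median 0.21). Hmgcs1, at the entry of the pathway, fell by 0.77 and Srebf2, its regulator, fell by 0.70. Sqle, Dhcr7, Tm7sf2 and Pmvk rose by 0.78, 0.80, 0.88 and 1.12. With library totals only, 4 of the 22 rose.

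Enzymes that write and remove DNA methylation mostly fell, with 7 of 12 lower, 2 higher and 3 not called (median -0.75). The de novo methyltransferases Dnmt3a and Dnmt3b fell by 1.08 and 1.10, and the dioxygenases Tet1, Tet2 and Tet3 by 2.14, 1.42 and 0.60 on the log2 scale. Dnmt1, the maintenance enzyme, stood at 117 ± 2.94 FPKM in CMP and 102 ± 2.61 FPKM in MEP (SD, n = 3) and was not called. Idh1 and Idh2, which make the cofactor of the TET enzymes, fell by 1.89 and 0.90. Gadd45a, tied to repair and demethylation, rose by 1.504 and Tdg, the thymine glycosylase, by 0.57, the latter not called with library totals only. Arid1a itself (chr4:133679008-133756769) stood at 57.6, 54.3 and 56.9 FPKM in CMP and 44.5, 41.9 and 43.5 FPKM in MEP, and its log2 fold change of -0.38 ± 0.04 (FDR = 2.9e-04) was under the limit on size, although it was called lower with library totals only.

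Most adhesion and antigen presentation genes fell. Of 32 adhesion and homing genes, all tested, 4 rose, 21 fell and 7 were not called (median -2.07). Cd93 fell by 5.93 and Cd53, a tetraspanin, by 5.88 on the log2 scale, while Cd36, a fatty acid receptor of early erythroid cells, rose by 3.34 ± 0.22, the tetraspanins Cd82 and Cd81 rose by 2.10 and 0.65, and the fibronectin receptor chain Itga5 by 1.21. The integrin chains Itga4 and Itgb1 stood at 42.1 and 78.6 FPKM in CMP and 44.0 and 86.0 FPKM in MEP and were not called.

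Of 20 MHC and antigen presentation genes, all tested, 18 fell and 2 were not called, and all 20 passed the FDR alone in the lower direction (median -1.16). H2-K1, a class I heavy chain, fell by 0.87 and B2m, its light chain, by 0.59, and the class II gene H2-Aa by 3.98. Class I genes are near-identical copies, so the split between them is uncertain. Of 35 interferon response genes, all tested, 17 fell, 2 rose and 16 were not called (median -0.81). Ifi203 fell by 4.06 and Irf1 by 2.67, Irf7 rose by 0.90 ± 0.11, and Isg20, a nuclease, rose from 16.5, 18.1 and 12.7 to 69.0, 101 and 64.2 FPKM (2.29 ± 0.10, FDR = 5.3e-06). Levels of Isg15 were 4.97, 12.9 and 4.22 FPKM in CMP and 6.95, 16.5 and 4.88 FPKM in MEP, where mouse 305 was the highest in both and the groups overlapped.

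**Figure D5:**
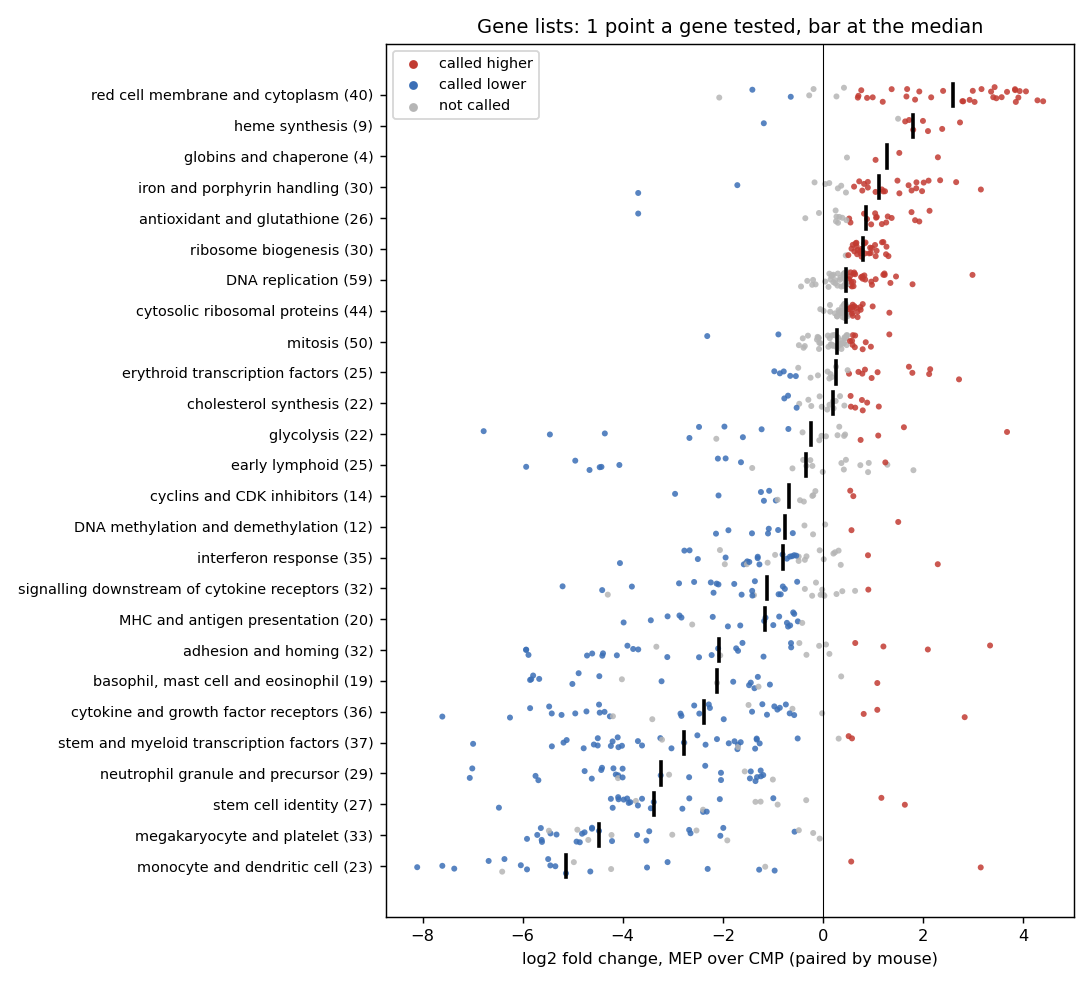
Log2 fold change (MEP over CMP, paired by mouse) of each gene tested in 26 lists, 1 point a gene, red for called higher, blue for called lower and grey for not called, with a bar at the median and the number tested in parentheses. Red cell membrane genes have the highest median (2.59) and monocyte and dendritic cell genes the lowest (-5.13).

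The largest changes among protein-coding genes that moved the same way in all 3 mice were, on the rising side, Agtr1a, the angiotensin II receptor, with 0.151, 0.158 and 0.0806 FPKM in CMP and 6.24, 7.70 and 5.31 FPKM in MEP (5.60 ± 0.19, FDR = 2.8e-06). Then came Pdia2, a protein disulfide isomerase (4.95 ± 0.19), Plpp1, a lipid phosphatase (4.90 ± 0.27), Phospho1, a phosphocholine phosphatase (4.86 ± 0.20), Phyhip (4.73 ± 0.24), Acsl6, an acyl-CoA synthetase (4.72 ± 0.11), Btnl10, a butyrophilin-like protein (4.71 ± 0.13), and Tac2, a tachykinin precursor (4.66 ± 0.42). Most were low even in MEP, from 3.99 FPKM for Tac2 to 18.7 FPKM for Acsl6. On the falling side, after F13a1 and Csf1r, came Galnt3, an enzyme of O-glycosylation (-7.38 ± 0.46), Ms4a6c (-7.37 ± 0.14), Mefv, pyrin (-7.27 ± 0.28), Nrp1, neuropilin 1 (-7.21 ± 0.22), Ccl9, a chemokine (-7.16 ± 0.32), and Tifab (-7.13 ± 0.23). Each of these MEP levels was under 1 FPKM in every mouse, and Galnt3 was at 0 in the MEP library of mouse 305, so its fold change depends on the prior count of the fit.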

How the data were processed

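Bone marrow precursors were sorted, RNA was poly(A) selected and sequenced as paired 100 bp reads with a library kit that does not mark strand, so that antisense and overlapping genes cannot be told apart. The authors quantified transcripts of the mouse genome (GRCm38, mm10) with kallisto and deposited estimated counts, TPM and effective lengths for each of 115088 Ensembl transcripts in each library. TPM values as deposited by the authors were used only to weight the effective length of each gene, and the deposited effective lengths are in bases. Of the transcripts, 114200 (99.2%) were paired with a gene, and between 0.251 and 0.288% of the counts of a library were on transcripts that were not and stayed out.

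The deposited estimated counts were summed per gene, rounded to whole numbers and fitted with edgeR 4.0.16 (R 4.3.3, limma 3.58.1), with filterByExpr, TMM factors and a quasi-likelihood F-test with mouse and population as terms over the 6 libraries. Genes were called at a Benjamini-Hochberg adjusted p (FDR) under 0.1, an absolute log2 fold change over 0.5 and a mean over 1 FPKM, limits that the study gives in a figure legend for its knockout comparison. SE is the log2 fold change over the square root of F. FPKM is the count per TMM-scaled library and per kilobase of mean effective length. MEP and GMP were compared in a fit of the 9 wild-type precursor libraries. All GMP levels, and those CMP and MEP levels named as on the scale of 9 libraries, use the scaling of that set. The other CMP and MEP levels use the scaling of the 6 libraries. The other 13 libraries were not analysed here.

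The mouse numbers in the labels pair the libraries, since CMP and MEP came from the same animals. Deviations from the population means correlated between CMP and MEP of the same mouse (r = 0.21, 0.44 and 0.31 over 12279 genes). Between different mice r was from -0.34 to 0.10. Deviations from a mean of 3 mice sum to 0 for each gene, so these values depend on each other and are no test of the pairing. With 3 mice and the mouse as a block, p-values measure the spread of the difference between populations within a mouse, over these animals only. Steps were tested on simulated data, in which 16221 genes were tested, 200 were changed and no difference between mice was put in. The share of false calls at the FDR limit alone was 18.1% with edgeR and 21.6% with DESeq2, above the nominal share. The FDR was thus optimistic in that setting. In the real data 73.7% of the genes passed that limit, so the simulated shares cannot be carried over to them. Alternatives were no block, median-of-ratios size factors, library totals only, no filter, a transcript length offset, DESeq2 1.42.0 with and without that offset, 9 libraries, each mouse left out, and other thresholds. Tables and figures were made with pandas 2.3.3, numpy 2.4.6 and matplotlib 3.10.9.

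The comparison and the gene lists were chosen with earlier results of these data known. By the naming rule the text gives a fixed set of anchor genes, the 8 largest rises and 8 largest falls of protein-coding genes that moved the same way in all 3 mice, members of lists of 10 or fewer, the 4 largest changes each way of longer lists, and members needed to describe a role. Lists got counts and medians and no test. Transcripts of a gene with starts within 500 bases were grouped for the shares by start. Promoter windows are from RefSeq. Some members of the lists are counted but not reported by name here.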

Additional observations from a re-analysis of the deposited data

How the results depend on the processing

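The counts of calls moved by less than 1.5 times under every other fit and under a level limit of 0.5 FPKM, and by more only with an absolute log2 fold change over 1, which left 1157 genes higher and 2206 lower. Without the replicate block (the pairing by mouse), 3238 genes were called higher and 3379 lower, and 6581 of the 6639 calls were shared, all in the same direction. Among the lists, it moved a count by over 1.5 times for the mature neutrophil markers (8 lower with the block, 3 without) and for rises of stem and myeloid factors (2 and 1), and for no other. Leaving out each mouse in turn gave 3112 to 3610 higher and 3148 to 3373 lower. DESeq2 gave 3303 and 3254. The early lymphoid median ranged from -0.60 to 0.11 when a mouse was left out, and so changed sign without mouse 305. Cd47 was -0.02 with the length offset and 0.0003 with DESeq2 and that offset, where the main value was -0.64. Of 8302 values over 755 named genes, 8056 kept direction and side of the threshold, 134 lost the call, 111 gained it and 1 changed sign. Of 363 list medians, 49 moved by more than the spread between mice and 1 changed sign. The cause was not tested. Shares by transcript start were not tested, and levels under 1 FPKM are limited by counting.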

Other observations

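Noncoding genes also changed. Of 1643 lncRNA genes tested, 181 were called higher in MEP and 213 lower, counting only genes that moved the same way in all 3 mice. Both are smaller shares than the 19.4% and 20.5% of all genes tested, which were counted without that condition. The largest rise was Gm37401, an antisense gene on chromosome 9 (chr9:108337089-108338273, minus strand, GRCm38), which had 0 counts in each CMP library and 301, 145 and 125 counts in MEP of mice 300, 305 and 309. It overlaps Rhoa (log2 fold change -0.20 ± 0.05), and since the libraries do not mark strand, reads of overlapping genes cannot be told apart. The lincRNAs 1700063H04Rik and Gm15290 rose by 5.44 ± 0.33 and 5.28 ± 0.37 on the log2 scale, with 3 to 6 counts in each CMP library and 82 to 174 in each MEP library. Gm15816, antisense, rose by 4.49 ± 0.36 and lies within the span of Ank1, the ankyrin of the red cell membrane, which rose by 3.46 ± 0.06.

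On the falling side, BE692007 had 749, 981 and 926 counts in CMP and 16, 2 and 9 in MEP (-6.28 ± 0.36), and F630028O10Rik, on the X chromosome, 1152, 1280 and 1295 counts in CMP and 25, 4 and 14 in MEP (-6.12 ± 0.32). For both the MEP library of mouse 300 was the highest of the 3. BE692007 overlaps Ms4a6c, a gene that fell by 7.37. Gm11505, which lies within the span of Mpo (chr11:87795784-87801144, minus strand), had 191, 299 and 278 counts in CMP and 3, 2 and 3 in MEP. 2310075C17Rik had 49, 44 and 31 counts in CMP and 0, 0 and 1 in MEP.

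Outside the lists, 4 genes with strong rises were picked after their values were seen. Sphk1, which makes sphingosine 1-phosphate, had 18.1, 19.4 and 16.7 FPKM in CMP and 332, 353 and 318 FPKM in MEP (log2 fold change 4.21 ± 0.05, FDR = 5.8e-07). Mt2, a metallothionein, had 24.3, 31.8 and 18.05 FPKM in CMP and 422, 530.3 and 405 FPKM in MEP (4.21 ± 0.10, FDR = 1.2e-06). Hpn, a serine protease, had 5.40, 7.26 and 4.35 FPKM in CMP and 126, 165 and 120.2 FPKM in MEP, and Abcg4, a sterol transporter, 1.99, 2.01 and 1.77 FPKM in CMP and 40.4, 53.5 and 40.6 FPKM in MEP. The 3 MEP libraries were above the 3 CMP libraries for each of these genes, which follows from how they were picked and is no result.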
